A study of Mus musculus with 2 samples.

Results

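Cluster 6 is a set of 716 CD8 T cells among 8562 cells of the colon lamina propria, chosen as the cells that carry the number 6 among the 12 fine clusters of the deposited annotation. The cells came from Rag1 knockout mice, which make no T or B cells of their own. Colitis was induced in these hosts by transfer of wildtype naive CD4 T cells (CD45RBhigh CD25-), and splenic CD8 T cells (TCRb+ CD8b+ CD4-) were transferred with them. The CD8 donors were Bcl6fl/fl Cd8aCre or Bcl6fl/fl, so every host, in both groups, received the same kind of CD4 T cells and a floxed CD8 donor. Mice were 8 to 12 weeks old at transfer, and CD8 T cells were isolated 6 to 10 weeks later. The annotation calls the groups Crep and Cren, which are read here as Cre-positive (Bcl6fl/fl Cd8aCre) and Cre-negative (Bcl6fl/fl), a reading that no source spells out. Each group had 4 hashtags, the antibody tags that mark a cell's origin in a pool, and the hashtag is the replicate throughout. Whether the hashtags were different mice is not stated, and p-values measure the spread between hashtags. Cre is driven by Cd8a in this model, and the transferred CD4 T cells were wildtype in both groups.

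Cytotoxic CD8 T cells kill through granules that hold perforin and granzymes, proteases that start death in the target cell. Some effector cells circulate: these keep KLF2, a transcription factor that maintains the egress receptor S1PR1, and often carry CX3CR1, the receptor for fractalkine. Others stay in the gut wall, where integrin alpha E (Itgae) binds E-cadherin on epithelial cells. T cells that have just received a signal through their antigen receptor or through cytokines briefly raise early-response genes such as Nr4a1, Ier2 and the AP-1 factors, along with feedback inhibitors such as Nfkbia. BCL6, the protein targeted in the donors, is a transcriptional repressor.

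One pooled gene-expression library held all cells, each with its own barcode. Cluster 6 held 2346149 UMIs, 1129671 of them from 335 Crep cells and 1216478 from 381 Cren cells. A cluster 6 cell had between 740 and 8378 UMIs, with a median of 3019.5, against medians between 1007 and 4081 in the other clusters. By hashtag, cluster 6 held 92, 61, 143 and 39 Crep cells and 209, 44, 108 and 20 Cren cells. At the 0.6 resolution of the annotation 670 of the 716 cells fell into a single coarse cluster, number 3, which held 1326 cells in all. Cluster 4 held 748 Crep cells and only 219 Cren cells, so a comparison with it by hashtag could use 6 hashtags, the 4 Crep ones and Cren 1 and Cren 3, at a minimum of 20 cells in both clusters.

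The label of CD8 T cells held by its defining genes. Cd3e, a chain of the CD3 complex, ranged from 883 to 1285 CPM over the 8 hashtags in cluster 6 (CPM are UMIs of a gene per 1000000 UMIs of all genes in the same cells). Cd8b1, the CD8 beta chain, ranged from 723 to 1428 CPM, and Cd8a from 436 to 667 CPM. Cd8a was lower than in the other cells in 8 of 8 hashtags, with a median of 507 CPM in cluster 6 and 926 CPM in the other cells. Cd4 had 1 UMI in the whole cluster. Summed over their lists, CD4 T markers lay between 0 and 48.2 CPM in cluster 6 and between 23.3 and 82.7 CPM in the other cells. The summed markers of further cell types overlapped between cluster 6 and the other cells. Myeloid markers lay between 239 and 466 CPM in cluster 6 and between 293 and 389 CPM in the other cells. Gamma-delta T markers lay between 182 and 345 CPM in cluster 6 and between 254 and 723 CPM in the other cells. NK and innate lymphoid markers lay between 86.1 and 254 CPM in cluster 6 and between 102 and 177 CPM in the other cells. Foxp3, Csf1r, Epcam and Kit were at 0 UMIs in cluster 6.

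The markers that came with the cluster's label, Gzma and Cx3cr1, did not set it apart equally. On GRCm38, Gzma lies at chr13:113093825-113100981 on the minus strand and Cx3cr1 at chr9:119901616-120069879 on the minus strand. Gzma, a granzyme, ranged from 2678 to 7379 CPM in cluster 6 with a median of 5012 CPM, against 835 to 5357 CPM and a median of 2792 CPM in the other cells. It was higher in 7 of 8 hashtags, and over all cells pooled cluster 6 had 5711 CPM, rank 2 of 12 clusters behind the 10111 CPM of cluster 4. Cx3cr1 ranged from 0 to 105 CPM in cluster 6 with a median of 50.6 CPM, against 7.37 to 63.6 CPM and a median of 36.1 CPM in the other cells. It was higher in 5 of 8 hashtags only. Over pooled cells cluster 6 had 56.7 CPM of Cx3cr1, rank 3 of 12 clusters, behind 205 CPM in cluster 4 and 86.5 CPM in cluster 10. Clusters 0 to 3 had between 7.58 and 12.6 CPM. Cx3cr1 thus stood above most clusters in cluster 6 but did not mark it off from all other cells, cluster 4 among them. After each cell was thinned to 2000 UMIs, a Cx3cr1 UMI was seen in 8.13% of cluster 6 cells, 29.5% of cluster 4 cells and 5.52% of all cells outside cluster 6. All cells here are CD8 T cells, so no cell type that lacks these genes was at hand. Lyz2, a myeloid gene, had a UMI in 8.46% of the thinned cluster 6 cells and 10.2% of the thinned other cells, which is as large as the Cx3cr1 share of cluster 6.

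Bcl6, the gene targeted in the donors, was compared first. In cluster 6 it had 19.7, 17.6, 30.4 and 9.57 CPM in Crep 1 to Crep 4, against 4.54, 6.63, 8.76 and 0 CPM in Cren 1 to Cren 4. All 4 hashtags labelled Crep lay above every hashtag labelled Cren, the opposite of what loss of the transcript would give. The level rests on 33 UMIs in the cluster: every Cren value and that of Crep 4, which is 1 UMI, are at or under the level of 3 counts in their hashtag, and Bcl6 was too low to be tested there. In the other cells of the same hashtags Bcl6 had 33.8, 30.8, 30.5 and 24.9 CPM in Crep 1 to Crep 4, against 18.9, 18.1, 16.2 and 20.9 CPM in Cren 1 to Cren 4. There too every hashtag labelled Crep lay above every one labelled Cren (log2 fold change 0.70, SE 0.14, edgeR adjusted p = 0.0257, where 0.99% of all genes passed, 0.505% as higher and 0.484% as lower in Crep). The kit reads transcripts near their 5' end, the counts are per gene with no exon, and no source used here names the floxed exons, so these levels cannot tell a recombined allele from an intact one. All directions below are those between groups as labelled. Cd4 was also too low to be tested.

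**Figure D1:**
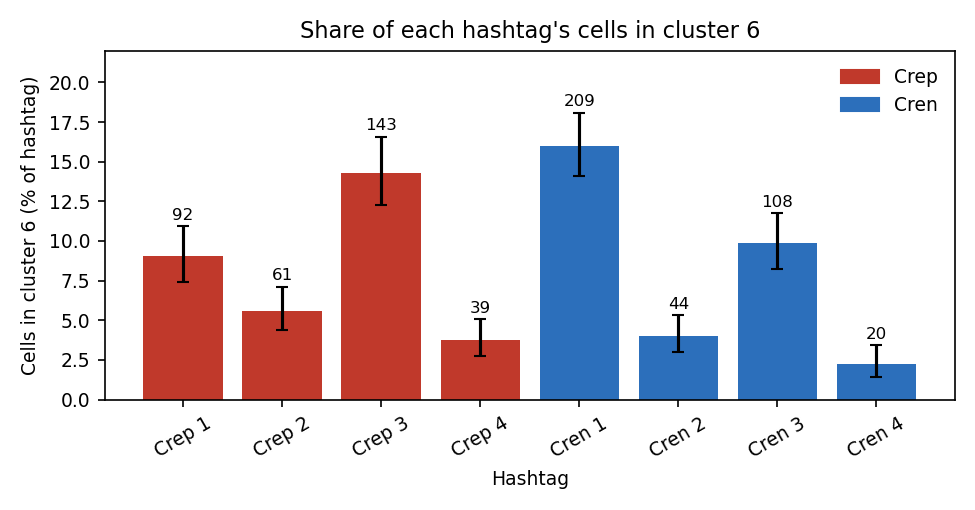
Cells in cluster 6 as a percentage of all cells of each hashtag, Crep left of Cren; bars give the share, error bars the 95% Wilson interval (counting error only), and the number above a bar is the count of cluster 6 cells. Crep shares run from 3.73% to 14.3% and Cren shares from 2.22% to 16.0%, and the groups overlap throughout.

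The share of cells in cluster 6 did not separate the groups. It was 9.03%, 5.59%, 14.3% and 3.73% in Crep 1 to Crep 4, and 16.0%, 3.98%, 9.86% and 2.22% in Cren 1 to Cren 4. The highest and the lowest share were both in Cren hashtags, and each group spanned most of the range of the other. Means were 8.16% ± 4.64 in Crep and 8.02% ± 6.25 in Cren (SD, n = 4 each), with an exact two-sided permutation p of 1.00, where the smallest p that 4 against 4 hashtags allow is 0.0286. With cluster 4 left out of the total the exact permutation p was 0.714. Of the 10 leading genes of the cluster, 0 passed between Crep and Cren, whether in cluster 6 alone, where 0.0269% of all genes passed, or in all cells of a hashtag, where 0.611% did, 0.342% as higher and 0.269% as lower in Crep (edgeR). Median UMIs per cell averaged 3026 ± 547 over Crep hashtags and 3024 ± 286 over Cren hashtags (exact permutation p = 1.00). Median mitochondrial shares averaged 0.631% ± 0.0232 over Crep hashtags and 0.694% ± 0.0263 over Cren hashtags (exact permutation p = 0.0571, 0.229 adjusted over 4 measures). For ribosomal UMIs the Crep hashtags averaged 16.96% ± 0.708 and the Cren hashtags 17.6% ± 0.719 (exact permutation p = 0.229, 0.457 adjusted).

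Against all other cells of the same hashtag, cluster 6 was led by early-response and feedback genes. The clusters were drawn from these same counts, so the levels below describe the cluster and carry no test. Nr4a1, the orphan nuclear receptor induced by antigen receptor signals, ranged from 641 to 1426 CPM in cluster 6 with a median of 799 CPM, against 110 to 430 CPM and a median of 224 CPM in the other cells. Nfkbia, the inhibitor of NF-kappaB that NF-kappaB itself induces, ranged from 1204 to 1860 CPM in cluster 6 and from 348 to 656 CPM in the other cells. Neither gene's ranges overlapped. The mean log2 ratio (CPM + 1) was 1.90 ± 0.43 for Nr4a1 and 1.64 ± 0.28 for Nfkbia (SD, n = 8 hashtags).

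Further leading genes included immediate-early genes, feedback regulators and a granzyme inhibitor. Ier2, an immediate-early gene, had a median of 1008 CPM in cluster 6 and 461 CPM in the other cells. Zfp36, which encodes tristetraprolin, an RNA-binding protein that speeds the decay of cytokine transcripts, had medians of 967 CPM in cluster 6 and 387 CPM in the other cells. Pim1, a kinase induced by cytokine signals, had medians of 719 CPM in cluster 6 and 253 CPM in the other cells. Their ranges in cluster 6 lay above those in the other cells, from 946 against at most 484 CPM for Ier2, from 511 against at most 505 CPM for Zfp36, and from 506 against at most 319 CPM for Pim1. Dusp5, a phosphatase of ERK, had medians of 459 CPM in cluster 6 and 213 CPM in the other cells. Serpinb9, the inhibitor that protects killer cells from their own granzyme B, had medians of 527 CPM in cluster 6 and 160 CPM in the other cells. Among the 15 genes with the highest ratios, Sgk1, Serpinb6b, Prr7, Mxd1, Gm45552, Csrnp1, Txndc5 and Nfkbiz completed the list, with mean log2 ratios between 1.14 for Nfkbiz and 1.38 for Sgk1.

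**Figure D2:**
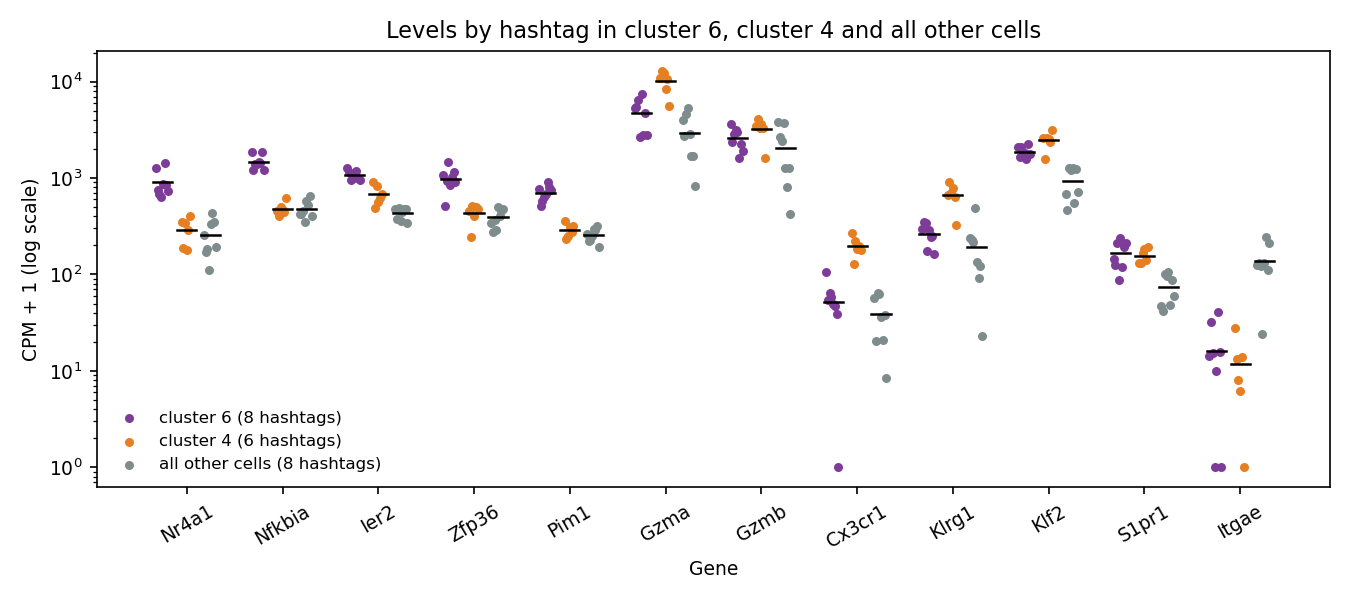
Level of 12 genes (CPM + 1, log axis) by hashtag in cluster 6, cluster 4 and all other cells; each point is a hashtag and each line a group mean, with 8 hashtags for cluster 6 and the other cells and 6 for cluster 4, and a level of 0 is drawn at 1. Nr4a1, Nfkbia, Ier2 and Pim1 sit higher in cluster 6 than in both, Gzma and Klrg1 are highest in cluster 4, and Itgae is low in clusters 6 and 4.

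Promoter sequences of genes that lead the cluster are shown because early-response genes are known for signal-responsive elements near their starts. They are the 250 bases before the annotated start in RefSeq (GRCm38.p6), in the direction of transcription, with a motif match in capitals. The 4 motifs searched on both strands were the NF-kappaB type motif (GGGA, any 2 bases, TTCC), the CArG box of serum response factor (CC, 6 bases of A or T, GG), the CRE TGACGTCA and the AP-1 motif TGANTCA. Nfkbia is at chr12:55492648-55492897 on the minus strand, Zfp36 at chr7:28379229-28379478 on the minus strand, Dusp5 at chr19:53528895-53529144 on the plus strand and Nr4a1 at chr15:101266596-101266845 on the plus strand.
Nfkbia: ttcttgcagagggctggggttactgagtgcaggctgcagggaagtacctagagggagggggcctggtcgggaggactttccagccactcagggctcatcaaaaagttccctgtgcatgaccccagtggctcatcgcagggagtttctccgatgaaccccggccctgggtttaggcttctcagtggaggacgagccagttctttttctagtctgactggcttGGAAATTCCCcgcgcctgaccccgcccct
Zfp36: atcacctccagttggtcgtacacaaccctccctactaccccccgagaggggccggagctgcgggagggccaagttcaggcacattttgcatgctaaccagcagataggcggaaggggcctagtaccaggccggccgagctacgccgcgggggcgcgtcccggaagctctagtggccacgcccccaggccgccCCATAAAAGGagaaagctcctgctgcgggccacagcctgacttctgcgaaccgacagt
Dusp5: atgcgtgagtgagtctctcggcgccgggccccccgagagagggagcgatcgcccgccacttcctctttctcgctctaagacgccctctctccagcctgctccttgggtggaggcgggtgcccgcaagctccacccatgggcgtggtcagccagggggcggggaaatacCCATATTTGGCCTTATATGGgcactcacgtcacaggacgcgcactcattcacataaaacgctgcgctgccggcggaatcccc
Nr4a1: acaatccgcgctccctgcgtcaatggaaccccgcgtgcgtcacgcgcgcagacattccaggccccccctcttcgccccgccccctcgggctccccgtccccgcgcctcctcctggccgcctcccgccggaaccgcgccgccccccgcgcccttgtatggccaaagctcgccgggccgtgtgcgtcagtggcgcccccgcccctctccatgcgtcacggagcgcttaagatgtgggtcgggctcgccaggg
The capitals mark a match to the NF-kappaB type motif in Nfkbia, read on its other strand, 29 to 20 bases before the start. They mark a CArG box 58 to 49 bases before the start in Zfp36 and a pair of adjoining CArG boxes, 82 to 73 and 72 to 63 bases before the start, in Dusp5. The Nr4a1 window held none of these motifs. Of the 15 leading genes 12 matched a RefSeq promoter. These 12 genes have 23 promoter windows in the table, so matches were counted per gene, in any of its windows, here and over all 27025 genes of the table. The NF-kappaB type motif was held by 1 of the 12, against 1.36% of all genes, and a CArG box by 2, against 1.62%. TGANTCA was held by 1 (Csrnp1), against 7.82%, and TGACGTCA by 0, against 1.77%. Over all 32851 promoters the shares were 1.21% for the NF-kappaB type motif, 1.47% for the CArG box, 6.75% for TGANTCA and 1.55% for TGACGTCA. None of the 11 matched genes among the 15 lowest held any of the 4 motifs.

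The early-response list as a whole was high in cluster 6. Of its 15 members at 20 CPM or more over all cells, 11 were higher than in the other cells in 8 of 8 hashtags and 0 were lower in all, where 3.95% of all 5589 such genes were higher and 4.63% lower. The median log2 ratio of the list was 0.56, against -0.09 over all genes. Junb, the most abundant member and a subunit of AP-1, ranged from 3344 to 5012 CPM in cluster 6 with a median of 3957 CPM, against a median of 2494 CPM in the other cells. Other clusters reached or passed these levels. Over pooled cells Junb had 3816 CPM in cluster 6, rank 3 of 12 clusters, behind 5074 CPM in cluster 11 and 4861 CPM in cluster 2. Nr4a1 ranked 2 with 891 CPM in cluster 6, behind 1304 CPM in cluster 11, while Nfkbia, Ier2, Zfp36 and Pim1 were highest in cluster 6. Dusp1 ranked 2, behind cluster 2, and Btg2 ranked 4. Jun, another AP-1 subunit, was higher in only 2 of 8 hashtags, with medians of 700 CPM in cluster 6 and 798 CPM in the other cells. Fos was higher in 5 of 8 hashtags, so Fos and Jun did not share the pattern of Ier2, Ier5, Zfp36, Dusp1, Btg2 and Junb.

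Some egress genes and most S100, annexin and galectin genes were also high. Of 7 egress and recirculation genes 4 were higher in 8 of 8 hashtags, namely Klf2, Klf3, S1pr4 and Gpr183. Klf2 ranged from 1585 to 2264 CPM in cluster 6, against 466 to 1275 CPM in the other cells, with no overlap. S1pr1 had a median of 167 CPM in cluster 6 and 73.0 CPM in the other cells and was higher in 7 of 8 hashtags. Of 16 S100, annexin and galectin genes 10 were higher in 8 of 8 hashtags and 0 lower. Lgals3, which encodes galectin 3, ranged from 883 to 1440 CPM in cluster 6, against 250 to 701 CPM in the other cells. S100a10, the partner of annexin A2, had medians of 2263 CPM in cluster 6 and 1699 CPM in the other cells. Of 12 circulating effector genes 5 were higher in 8 of 8 hashtags, and of 16 candidate BCL6-repressed genes also 5, with 0 lower in either list.

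Among the genes lowest against the other cells was Itgae, the integrin chain of residence in the epithelium. Itgae ranged from 0 to 39.8 CPM in cluster 6 with a median of 13.7 CPM, against 22.9 to 246 CPM and a median of 127 CPM in the other cells. It rests on 35 UMIs in the cluster, and 3 counts correspond to between 4.54 and 48.2 CPM, depending on the hashtag. Its level was lower in 8 of 8 hashtags, and over pooled cells cluster 6 (14.9 CPM) ranked 9 of 12 clusters. Itga1, the collagen-binding integrin chain, and P2rx7, a receptor for extracellular ATP, were also lower in 8 of 8, while Cd69 and Bhlhe40 of the same residency list were higher in 8 of 8. Cd160, a receptor of the immunoglobulin family, had a median of 92.7 CPM in cluster 6 and 303 CPM in the other cells. Cd7, another T cell surface protein, had medians of 265 CPM in cluster 6 and 621 CPM in the other cells. The others among the 15 lowest were Fmn1, Fam46c, Rgs10, Trbv13-3, Tex14, Hspa1a, Actn2, Coro2a, Inpp4b, Hspa1b, Hsph1 and Apol7e.

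Heat shock genes were mostly on the low side. Of 11 members 5 were lower in 8 of 8 hashtags and 1 was higher, Hspa8, the constitutive chaperone. Hspa1b, an inducible chaperone of the HSP70 family, ranged from 163 to 578 CPM in cluster 6 with a median of 296 CPM, against 382 to 1117 CPM and a median of 622 CPM in the other cells. Of 12 inhibitory receptor and exhaustion genes 3 were lower in 8 of 8 hashtags (Lag3, Entpd1 and Cd160) and 0 higher. Of 18 cytotoxic granule genes 5 were higher in 8 of 8 (Gzmm, Fasl, Stx11, Serpinb9 and Serpinb6b) and 2 lower (Ctsw and Cst7). Perforin (Prf1) had medians of 88.7 CPM in cluster 6 and 68.4 CPM in the other cells and was higher in 5 of 8 hashtags.

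Some receptors and cytokines of effector cells were also high. Ifng, the cytokine interferon gamma, ranged from 321 to 920 CPM in cluster 6 with a median of 488 CPM, against 211 to 398 CPM and a median of 268 CPM in the other cells. Klrk1, which encodes the activating receptor NKG2D, ranged from 385 to 536 CPM in cluster 6, against 116 to 329 CPM in the other cells, with no overlap. Klrc1, which encodes the inhibitory receptor NKG2A, had medians of 934 CPM in cluster 6 and 551 CPM in the other cells. All 3 were higher in 8 of 8 hashtags. Of 7 killer lectin receptors 2 were higher in 8 of 8 and 0 lower, and of 14 cytokine receptors 3, namely Il2rb, Il18rap and Ifngr1. Irf7, a factor of the interferon response, ranged from 112 to 289 CPM in cluster 6 and from 54.7 to 112 CPM in the other cells, yet of 13 interferon response genes only Irf7 and Irf1 were higher in all hashtags and 2, Isg20 and Ly6a, lower. Xcl1, a chemokine that attracts dendritic cells, rested on 14 UMIs in cluster 6, with a median of 5.92 CPM against 90.2 CPM in the other cells. Cell cycle and glycolysis genes did not set the cluster off, with 0 of 7 and 0 of 13 higher and 1 and 2 lower.

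**Figure D3:**
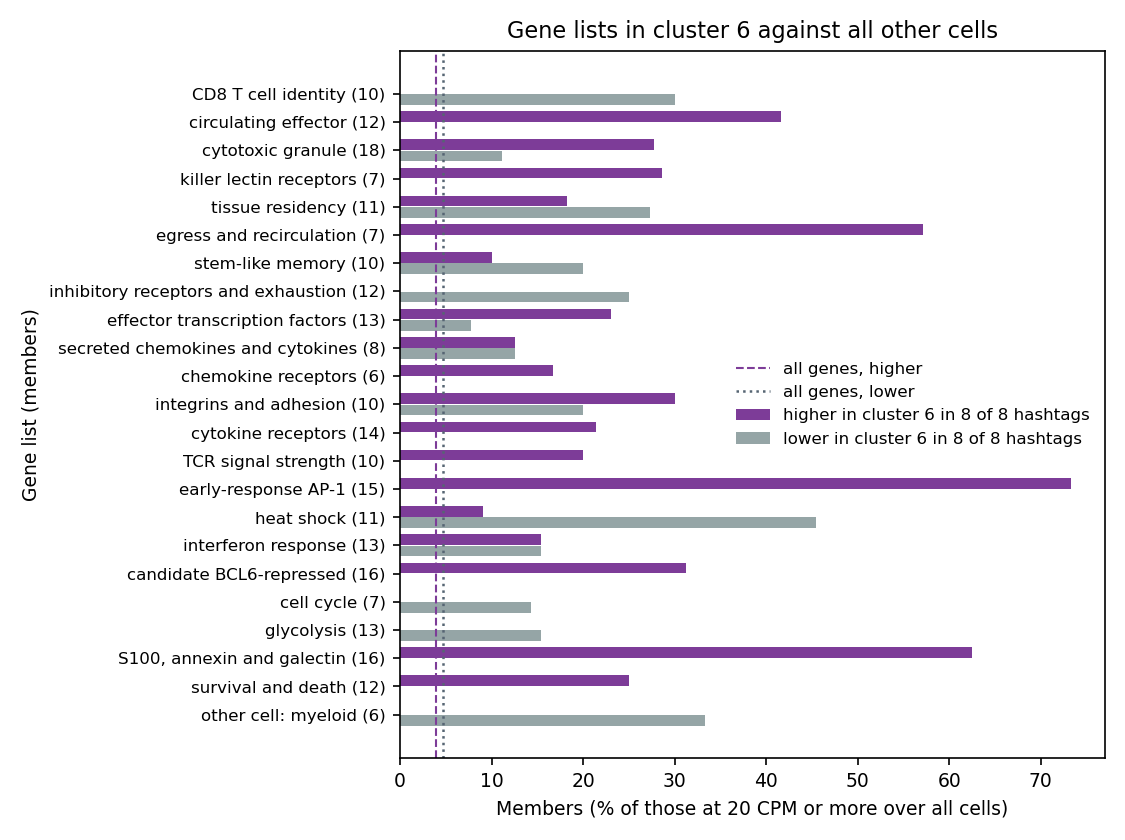
Percent of the members of each gene list with at least 5 members at 20 CPM or more over all cells (their number in brackets) that were higher or lower in cluster 6 than in all other cells in 8 of 8 hashtags; broken and dotted lines give the same percentages over all genes, 3.95% and 4.63%. Early-response AP-1, S100, annexin and galectin, and egress genes have the largest shares higher, and heat shock genes the largest share lower.

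Cluster 4 was the cluster chosen for a closer comparison, and effector genes went both ways against it. Of 12 circulating effector genes 4 were lower in cluster 6 in 6 of 6 hashtags and 1 was higher, where 3.88% of all genes were lower and 5.4% higher. Of 18 cytotoxic granule genes 4 were lower and 3 higher, and of 13 effector transcription factors also 4 and 3. Over the 6 hashtags, Cx3cr1 ranged from 38.0 to 105 CPM in cluster 6, against 127 to 271 CPM in cluster 4, with a mean log2 ratio of -1.71 ± 0.37 (SD, n = 6). Klrg1, an inhibitory lectin receptor of terminal effector cells, ranged from 172 to 348 CPM in cluster 6 and from 327 to 902 CPM in cluster 4. Zeb2, a transcription factor of terminal effector cells, ranged from 57.2 to 112 CPM in cluster 6 and from 143 to 238 CPM in cluster 4. All of these were lower in cluster 6 in 6 of 6 hashtags. S1pr5, a further egress receptor, had a median of 7.07 CPM in cluster 6 and 97.1 CPM in cluster 4. It rests on 20 UMIs in cluster 6. Gzma had medians of 5376 CPM in cluster 6 and 10748 CPM in cluster 4 and was lower in 6 of 6 hashtags. Gzmb, by contrast, had medians of 2931 CPM in cluster 6 and 3388 CPM in cluster 4 and was lower in 4 of 6. Klf2 and S1pr1, which stood out against the other cells, did not stand above cluster 4, with Klf2 higher in 1 of 6 hashtags and S1pr1 in 3 of 6. Hspa1a, Kcnj8, Hspa1b, Hsph1, Klre1, Insl6, Camk2n1, Ikzf3, Ccl3, Vamp4 and Gm44174 completed the 15 genes lowest against cluster 4.

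Early-response genes were also higher in cluster 6 than in cluster 4. Of the 15 on the list 12 were higher in 6 of 6 hashtags and 0 lower. The 15 genes with the highest ratios to cluster 4 included Ctla4, Cd28 and Icos. Ctla4, the inhibitory receptor for B7 molecules, ranged from 110 to 230 CPM in cluster 6, against 17.8 to 73.5 CPM in cluster 4. Cd28, the activating receptor for the same ligands, ranged from 239 to 380 CPM in cluster 6 and from 54.2 to 184 CPM in cluster 4. Icos, a relative of CD28, ranged from 134 to 171 CPM in cluster 6 and from 29.7 to 85.7 CPM in cluster 4. None of these ranges overlapped. Gpr183, the oxysterol receptor that positions lymphocytes, had medians of 258 CPM in cluster 6 and 90.4 CPM in cluster 4. Myc had medians of 84.9 CPM in cluster 6 and 27.7 CPM in cluster 4. The rest of the 15 genes highest against cluster 4 were Tgif1, Prr7, Socs3, Nfkbia, Zc3h12a, Nr4a1, Ubald2, Bcl2a1d, Emb and Gadd45b, with mean log2 ratios between 1.22 for Gadd45b and 1.78 for Prr7 and Tgif1. Of 10 stem-like memory genes 6 were higher in 6 of 6, among them Il7r, the interleukin 7 receptor, and Bach2, a repressor that restrains effector genes. Against cluster 4, 5 of 12 inhibitory receptor and exhaustion genes were higher in 6 of 6 hashtags and 1 was lower. The 11 tissue residency genes also gave 5 higher and 1 lower, where 5.4% of all genes were higher and 3.88% lower. Of 16 S100, annexin and galectin genes 0 were higher in all 6 and 1 was lower, so that set did not mark cluster 6 off from cluster 4. Median UMIs per cell were 3019.5 in cluster 6 and 2367 in cluster 4, and with every cell thinned to 2000 UMIs the mean log2 ratios were 1.70 for Nr4a1, 2.06 for Ctla4 and -1.75 for Cx3cr1, against 1.57, 1.87 and -1.71 without thinning.

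Cluster 6 cells of different hashtags used different antigen receptor segments. The leading beta chain variable segment was Trbv19 in Crep 1 (19.7% of Trbv UMIs), Trbv29 in Crep 2 (23.5%), Trbv19 in Crep 3 (14.7%) and Trbv17 in Crep 4 (23.2%). It was Trbv14 in Cren 1 (31.8%), Trbv1 in Cren 2 (32.0%), Trbv3 in Cren 3 (39.3%) and Trbv20 in Cren 4 (31.3%, of only 48 UMIs). No segment led in more than 2 hashtags. The leading share was between 14.7% and 23.5% in Crep hashtags and between 31.3% and 39.3% in Cren hashtags, so the groups did not overlap; this was seen in the values and not tested. For the alpha chain the leading share was 13.4%, 17.6%, 13.2% and 14.5% in Crep 1 to Crep 4 and 18.8%, 11.0%, 9.29% and 34.8% in Cren 1 to Cren 4, and there the groups overlapped. Among the other cells of the same hashtag the leading beta segment of cluster 6 took 21.3%, 8.61%, 20.1% and 13.0% in Crep 1 to Crep 4 and 10.4%, 6.67%, 25.9% and 6.57% in Cren 1 to Cren 4. Similar variable segments can share reads, so these shares are uncertain between close relatives.

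Within cluster 6, 1 gene passed between Crep and Cren. Of 3712 genes tested, 1 passed at an adjusted p of 0.05 (edgeR quasi-likelihood test, Benjamini-Hochberg), the 0.0269% given above. At an unadjusted p of 0.05, 104 genes were higher in Crep (2.8%) and 108 lower (2.91%), and DESeq2 called 0 genes with 66 at that unadjusted p. The gene that passed was Gm15494, an antisense gene at chr7:4445697-4471285 on the minus strand (GRCm38), at 243, 203, 275 and 258 CPM in Crep 1 to Crep 4 and 101, 139, 166 and 145 CPM in Cren 1 to Cren 4. Every Crep hashtag lay above every Cren hashtag, as it did for 1.86% of the genes tested. The log2 fold change was 0.89 (SE 0.18, edgeR adjusted p = 0.0440). Gm15494 overlaps the protein-coding gene Eps8l1 on the other strand, and no source says whether the counting used strand, so its reads are uncertain. The call was lost without Crep 1, Crep 3, Cren 1 or Cren 4 (edgeR adjusted p between 0.0551 and 0.730), with library totals alone (0.0585) and in DESeq2 (0.919).

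The markers of the cluster did not pass between groups. Gzma had 5275, 5477, 6428 and 2678 CPM in Crep 1 to Crep 4 and 7379, 2779, 4750 and 2762 CPM in Cren 1 to Cren 4. The groups overlapped, and the log2 fold change was 0.12 (SE 0.41, edgeR adjusted p = 1.00), with its sign turning when Crep 3, Cren 2 or Cren 4 was left out. Cx3cr1 had 105, 52.8, 62.8 and 57.4 CPM in Crep 1 to Crep 4 and 48.4, 46.4, 38.0 and 0 CPM in Cren 1 to Cren 4. All Crep hashtags lay above all Cren hashtags, as for 1.86% of the genes tested. The log2 fold change of 0.74 (SE 0.29) did not pass over all genes (edgeR adjusted p = 0.769). In Cren 4, 3 counts correspond to 48.2 CPM, so its value of 0 is uncertain. After thinning to 2000 UMIs, a Cx3cr1 UMI was seen in 10.7% ± 2.197 of Crep cells (SD, n = 4) and 6.13% ± 3.31 of Cren cells (n = 3, Cren 4 having under 20 cells left; exact permutation p = 0.0857, 0.229 adjusted over 8 genes). Without thinning the share was 17.9% ± 4.88 in Crep, against 8.73% ± 5.85 in Cren (4 hashtags each, ± SD; exact permutation p = 0.0286, 0.114 adjusted). For Itgae they were 1.21% ± 0.853 of Crep cells and 3.36% ± 1.64 of Cren cells after thinning (exact permutation p = 0.0571, 0.229 adjusted), a difference of -2.16 percentage points that was -0.35 with cells thinned to 1000 UMIs and -0.31 without thinning. Of the 8 genes compared in this way, 0 passed after adjustment.

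The next genes by p at a mean of at least 5 log2 CPM did not pass and are given as values. S100a10 had 2376, 2954, 2827 and 2516 CPM in Crep 1 to Crep 4 and 1765, 2149, 2138 and 1927 CPM in Cren 1 to Cren 4, with no overlap, as for 1.86% of genes (log2 fold change 0.41, SE 0.10, edgeR adjusted p = 0.312). Psmb10, a subunit of the immunoproteasome, averaged 309 ± 20.96 CPM in Crep and 196 ± 25.9 CPM in Cren (4 hashtags each, ± SD), again with no overlap. Eomes, a T-box factor of memory and effector cells, averaged 53.7 ± 12.0 CPM in Crep and 108 ± 32.5 CPM in Cren, with every Crep hashtag below every Cren one, as for 1.48% of genes. Eomes is also on the list of NK and innate lymphoid markers, whose summed level lay between 86.1 and 114 CPM in Crep and between 126 and 254 CPM in Cren, with Klra8, Kit and Il1rl1 at 0. Without Eomes the sum lay between 38.3 and 74.8 CPM in Crep and between 46.4 and 102 CPM in Cren, and the groups overlapped. Rheb, the activator of mTORC1, averaged 78.2 ± 7.65 CPM in Crep and 130 ± 15.6 CPM in Cren, and Tigit, an inhibitory receptor, 169 ± 22.04 CPM in Crep and 271 ± 85.9 CPM in Cren. Both were below every Cren hashtag in 4 of 4 Crep hashtags. For these 4 genes the edgeR adjusted p lay between 0.332 and 0.358. Lgals3, Hsp90aa1, Gm21887 and 1500009L16Rik completed the list, with edgeR adjusted p between 0.397 and 0.427.

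**Figure D4:**
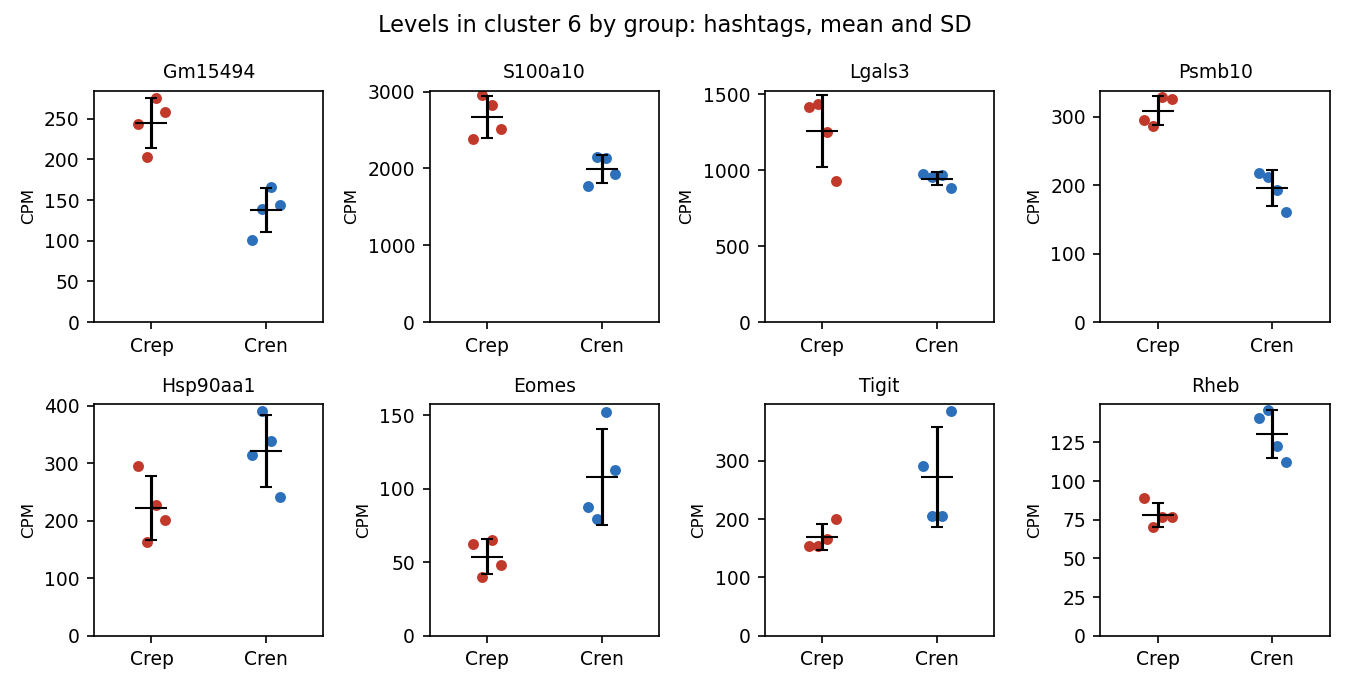
Level (CPM) of 8 genes in cluster 6 by hashtag, Crep left of Cren in each panel; points are hashtags, the long line the mean and the error bar the SD (n = 4 each). Gm15494, S100a10 and Psmb10 are higher in all Crep hashtags, and Eomes, Tigit and Rheb lower, but Gm15494 is the one that passes over all genes.

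Among the lists, the S100, annexin and galectin genes, the heat shock genes and the chemokine receptors each had estimates of a single sign. They were picked out for their signs from 30 lists, and the signs were not tested. The chemokine receptors are a short list, with 5 genes tested. Of 16 S100, annexin and galectin genes tested, 16 had a positive Crep-minus-Cren estimate and 0 passed, with a median log2 fold change of 0.28, against -0.02 over all genes tested. Over all 3712 genes tested, 1754 estimates were positive and 1958 negative. At an unadjusted edgeR p of 0.05, 7 of the 16 were higher in Crep, where 2.8% of all genes were. Of 11 heat shock genes 11 had a negative estimate and 0 passed, with a median of -0.35. Of these, 6 were lower in Crep at an unadjusted edgeR p of 0.05, where 2.91% of all genes were. Hspa1a had 118, 145, 164 and 19.1 CPM in Crep 1 to Crep 4 and 250, 272, 257 and 739 CPM in Cren 1 to Cren 4. The groups did not overlap, and Cren 4, with 20 cells, stood far above the other Cren hashtags (log2 fold change -1.28, SE 0.49, edgeR adjusted p = 0.855). The summed level of the heat shock list lay between 5625 and 6459 CPM in Crep, and its lowest Cren value was 7034 CPM. The mean mitochondrial share of UMIs given above was also lower in Crep, and its part in these levels was not tested. Of 5 chemokine receptors 5 had a positive estimate and 0 passed, with a median of 0.27. Of 17 cytotoxic granule genes tested, 10 had positive and 7 negative estimates, and of 14 candidate BCL6-repressed genes 8 and 6.

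Granzyme B differed between groups in the other cells more than in cluster 6. In cluster 6 Gzmb had 3638, 2342, 2858 and 3166 CPM in Crep 1 to Crep 4 and 3004, 1605, 2226 and 1911 CPM in Cren 1 to Cren 4. The groups overlapped, and the log2 fold change was 0.40 (SE 0.21, edgeR adjusted p = 0.946). In the other cells of the same hashtags the mean of the 4 Crep hashtags was 3135 ± 701 CPM and that of the 4 Cren hashtags 946 ± 415 CPM (SD). The log2 ratio of cluster 6 to the other cells was therefore -0.05, -0.17, 0.23 and -0.23 in Crep 1 to Crep 4 and 1.23, 1.00, 0.80 and 2.18 in Cren 1 to Cren 4. All 4 Crep ratios lay below all 4 Cren ratios, and Gzmb stood above the other cells of its hashtag in 1 of 4 Crep hashtags and in 4 of 4 Cren hashtags. The difference of these ratios, Crep minus Cren, was -1.35 (exact permutation p = 0.0286, the smallest that 4 against 4 allow). In the count model with hashtag as a block it was -1.25 (SE 0.12, edgeR adjusted p = 3.27e-16). That p depended on the scaling: with an estimate of -1.24, it was 0.341 with RLE size factors and 0.410 with library totals alone, and DESeq2 gave 7.21e-05. After thinning to 2000 UMIs, a Gzmb UMI was seen in 88.2% ± 1.505 of Crep cells of cluster 6 (SD, n = 4) and 73.0% ± 15.5 of its Cren cells (n = 3; exact permutation p = 0.0857, 0.229 adjusted over 8 genes). The shares were 80.9% ± 4.28 and 58.6% ± 16.0 at 1000 UMIs (n = 4 and 3). Without thinning they were 95.3% ± 1.63 and 82.5% ± 7.24 (n = 4 each). In both settings all Crep hashtags lay above all Cren ones (exact permutation p = 0.0286, 0.114 adjusted in each).

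The mix of the other clusters differed between hashtags, with cluster 7 at 36.6% of Crep 4 and cluster 4 at 31.8% of it. Gzmb was therefore also compared cluster by cluster in the 4 clusters with at least 25 cells in every hashtag, an analysis added after the data were seen. In cluster 0 it averaged 2653 ± 409 CPM in Crep and 791 ± 324 CPM in Cren, and in cluster 2 it averaged 2626 ± 1007 CPM in Crep and 693 ± 272 CPM in Cren (4 hashtags each, ± SD). It averaged 1609 ± 499 and 494 ± 103 CPM in cluster 1, and 3983 ± 555 and 2100 ± 1188 CPM in cluster 3. The Crep-minus-Cren difference on the log2 scale was 1.84, 1.67, 1.97 and 1.16 in clusters 0 to 3, smallest in cluster 3. All Crep hashtags lay above all Cren hashtags in each of clusters 0, 1, 2 and 3. With these 4 clusters weighted equally, the Crep-minus-Cren difference was 0.48 on the log2 scale (CPM + 1) in cluster 6 and 1.54 in the others, and the difference of the differences was -1.06 (exact permutation p = 0.0286). The clusters were drawn from the same counts, Gzmb among them, and the part of that in this difference was not tested. Gzmb was also taken up because it passed in these same hashtags, so its exact permutation p-values are no independent test. Against cluster 4 the log2 ratio of Gzmb was 0.08, -0.80, -0.22 and -0.20 in Crep 1 to Crep 4. It was -0.12 in Cren 1 and 0.47 in Cren 3. There the groups overlapped, with a difference of -0.46, and Gzmb did not pass for a difference of effects.

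**Figure D5:**
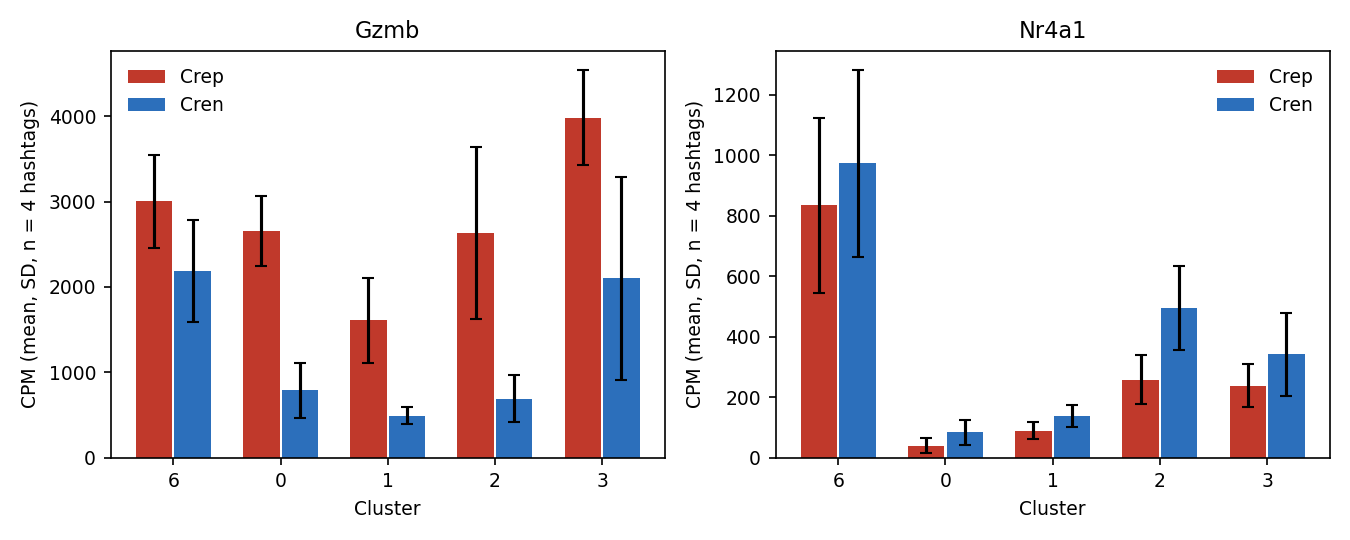
Mean level (CPM) of Gzmb and Nr4a1 in cluster 6 and in clusters 0 to 3, Crep left of Cren; bars are means over 4 hashtags and error bars the SD. Gzmb averages 3001 CPM in Crep and 2186 CPM in Cren in cluster 6, a smaller gap than in clusters 0 to 3, and of the clusters drawn Nr4a1 is highest in cluster 6 in both groups.

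In all, 19 of 9706 genes (0.196%) passed for a difference between the effect in cluster 6 and that in the other cells, 12 with a positive difference (0.124%) and 7 with a negative one (0.0721%; edgeR), and DESeq2 called 1 of them, Gzmb. The number was 8 without Crep 1 and 10 without Cren 1. Nr4a1 had a positive difference of 0.68 (SE 0.13, edgeR adjusted p = 0.000571). In cluster 6 it averaged 834 ± 289 CPM in Crep and 973 ± 308 CPM in Cren, and in the other cells 180.3 ± 59.7 CPM in Crep and 327 ± 98.7 CPM in Cren (4 hashtags each, ± SD). Its mean was thus lower in Crep among the other cells, but the groups overlapped both there and within cluster 6. In clusters 0 to 3, the Crep hashtags below every Cren hashtag numbered 2, 3, 3 and 1. The call was lost without Crep 1 (edgeR adjusted p = 0.0728), whose 1262 CPM in cluster 6 stood above the 641 to 744 CPM of the other Crep hashtags. By hashtag, the log2 ratios of Nr4a1 to the other cells differed by 0.63 (exact permutation p = 0.0571), with 3 of 4 Crep ratios above all Cren ratios. Weighted equally over clusters 0 to 3 the difference was 0.51 (exact permutation p = 0.0286). The genes in this paragraph were chosen by their difference in the same hashtags, so these exact p-values are no independent test. Ifrd1, a regulator of transcription, had a difference of 0.71, or 0.60 with equal weights (exact permutation p = 0.0286). Its call was lost without Crep 1, Crep 3 or Cren 1 (edgeR adjusted p up to 0.452) and in DESeq2 (0.557). Klrc1, which encodes NKG2A, had a difference of -0.63 that shrank to -0.21 with equal weights (exact permutation p = 0.486), and Ccr2, a chemokine receptor, one of -0.87 that shrank to -0.39 (p = 0.0571).

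Against cluster 4, 10 of 5815 genes (0.172%) passed for a difference of effects, 5 in each direction (0.086% each, edgeR), and DESeq2 called 0, with 34 at an unadjusted p of 0.05. This comparison had only 2 Cren hashtags, so an exact permutation test could not go below 0.0667. Gzma had 5275, 5477, 6428 and 2678 CPM in cluster 6 of the Crep hashtags and 7379 and 4750 CPM in cluster 6 of Cren 1 and Cren 3, against 10787, 12993, 12173 and 8311 CPM and 10708 and 5629 CPM in cluster 4 of the same hashtags. Its log2 ratio, cluster 6 over cluster 4, lay between -1.63 and -0.92 in Crep hashtags and was -0.54 and -0.25 in the Cren ones. The difference was -0.80 (SE 0.11, edgeR adjusted p = 4.02e-06). It was lost when Cren 1 or Cren 3 was left out, with 1 gene called without Cren 1 and 6 without Cren 3. Of the 10 genes, 5 were variable segments of the antigen receptor (Trbv13-3, Trav3-3, Trav10, Trbv14 and Trav7-6), which differed from hashtag to hashtag as described above.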

How the data were processed

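Single-cell RNA and hashtag libraries were made with the 10x 5' v2 kit, per the labels' protocols. The submitters' processing notes name Seurat 4.3.0, Cell Ranger 7.0.0, bcl2fastq 2.20.0.422 and the build mm10, with no role given, and strand handling and the clustering method are not given in the sources used here. The deposited values are raw UMI counts of 12798 genes in 8562 cells, and the sum of each cell equalled its deposited total. The lowest number of genes in a deposited cell was 500 and the highest mitochondrial share 3.0%, so cells were filtered before deposit. The deposited annotation gives percent mitochondrial and ribosomal UMIs per cell, hashtag, condition and cluster; its map coordinates, a deposited score with no unit, were not used. No doublet caller was run: of the 716 cluster 6 cells, 706 had the same hashtag from both deposited hashtag classifiers and 10 did not.

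UMIs of cluster 6 cells were summed per hashtag (20 cells or more) and tested with edgeR 4.0.16 (TMM, filterByExpr, robust quasi-likelihood, Benjamini-Hochberg at 0.05) in R 4.3.3, without a block. Differences of effects used hashtag as a block. DESeq2 1.42.0 was an alternative. The edgeR steps were tested on simulated data. CPM were computed on all genes of a hashtag and cluster, and log2 ratios on CPM + 1. Shares of cells with a UMI used cells thinned to 2000 UMIs, which left 603 cells and left out 51 Crep and 62 Cren cells. Exact permutation tests over hashtags were two-sided and went through every split of the hashtags in numpy 2.4.6. Intervals of shares are 95% Wilson intervals (scipy 1.17.1), and they and floors of 3 counts cover counting error only.

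Named genes were those past the threshold, the 10 smallest p at a mean of 5 log2 CPM or more, Bcl6, Cd4, Gzma and Cx3cr1, up to 15 per direction by mean log2 ratio with 1 direction in every hashtag (100 CPM or more in cluster 6 or in the cells it was set against), and leading members of 30 lists; genes called for a difference of effects are all given. The choice of cluster, the lists and the rules were made with earlier results of these data known. Bcl6-repressed genes are a list of candidates, not a measured target set. Gene positions are those of GRCm38, and promoters come from RefSeq on GRCm38.p6. Alternatives were other scaling, filters, cell minimums, hashtag calls, depths, a replicate block and omission of each hashtag.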

Additional observations from a re-analysis of the deposited data

Results flagged for a closer look

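In 97 groups of 4 hashtags, 5 held a value that stood apart from the other 3 of its group by Dixon's criterion, where chance gives about 1 in 20. In cluster 6, Nr4a1 was 1262 CPM in a single Crep hashtag, against 641 to 744 CPM in the others. Hspa1a was 739 CPM in Cren 4, against 249.6 to 272 CPM in the other Cren hashtags. Actn2 was 113 CPM in a single Cren hashtag, against 32.1 to 38.0 CPM. Cd4 was 4.40 CPM in a single Crep hashtag, which is 1 UMI, against 0. The median ribosomal share was 18.7% in a single Cren hashtag, against 17.2% to 17.3%.

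In 29 cases the Crep-minus-Cren effect in cluster 6 differed from that in other cells by the edgeR test of the difference itself (log2 scale, adjusted p under 0.05). Against all other cells, genes of effector function gave -1.25 for Gzmb, -0.52 for Gzmk, -0.63 for Klrc1, -0.87 for Ccr2 and -0.92 for Fgl2. Early-response genes gave 0.68 for Nr4a1, 1.42 for Egr1 and 0.80 for Fos. Ifrd1 gave 0.71, Camk2b 1.34, Txnrd2 2.86 and Metrnl -1.63. Areg, which encodes amphiregulin, gave 5.28 on 26 UMIs, most of them in a single Crep hashtag, and Xcl1 gave 3.45 on 14 UMIs. Receptor segments gave 4.49 for Trav13-1, 8.51 for Trav13n-4, 2.94 for Trav7-3, 3.75 for Trav14-2 and -5.90 for Trdc, the constant segment of the delta chain. Trdc rests on 12 UMIs in cluster 6, Trav13n-4 on 16, Trav7-3 on 35 and Trav14-2 on 39. With clusters 0 to 3 weighted equally, all 19 genes kept the sign of their difference, and an exact permutation p of 0.0286, the smallest possible, was reached by Gzmb, Nr4a1, Ifrd1, Trav13-1 (5.40) and Trav13n-4 (4.08). Gzmk gave -0.01 (exact permutation p = 0.943), Fgl2 -0.13 (p = 0.771), Trav7-3 0.20 (p = 0.914), Trdc -1.04 (p = 0.6) and Trav14-2 1.90 (p = 0.143). The exact permutation p was 0.143 for Egr1, 0.114 for Fos, Areg and Metrnl, 0.286 for Xcl1, and 0.0571 for Camk2b and Txnrd2. All 19 genes were chosen by their difference in the same hashtags, without adjustment here. The kept signs and these exact p-values are therefore no independent test.

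Against cluster 4, with 2 Cren hashtags only, the difference was -0.80 for Gzma, -0.53 for Gzmk, -0.33 for Ccl5, 0.69 for Jun and 0.81 for Trbc2. Receptor segments gave -4.18 for Trbv13-3, 1.62 for Trbv14, -4.45 for Trav3-3, 4.92 for Trav10 and 5.09 for Trav7-6.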

How the results depend on the processing

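The 1 gene called between Crep and Cren in cluster 6 became 0 genes with library totals alone or DESeq2, 12 with no filter on low counts, 5 with at least 40 cells per hashtag (added after the data were seen, without Crep 4 and Cren 4) and 7 with the number in the hashtag name as a replicate block; omitting each hashtag gave 0 to 3 genes. Correlations of deviations between Crep and Cren hashtags of the same number were low, at 0.0413, 0.0810, 0.0245 and 0.00904. Crep 1, Crep 2 and Crep 3 still correlated most with the Cren hashtag of their own number, and Crep 4 with Cren 1. Whether the numbers pair the hashtags is not stated and was not tested. The Gzma log2 fold change lay between -0.038 and 0.52 over omissions, and was -0.01 without Crep 3 or without Cren 4. Differences of effects against cluster 4 numbered 0 with DESeq2, 5 with at least 10 cells per hashtag and 1 to 14 over omissions; those against all other cells numbered 1 with DESeq2 and 8 to 26 over omissions. The cause of these shifts was not tested. Crep-minus-Cren differences that turned sign over omissions, and had no called direction, ranged from -1.90 to 2.80 percentage points for the share, -218 to 227 for median UMIs, -43.7 to 69.0 for median genes, and, in percentage points of cells with a UMI, -0.667 to 15.2 for Gzma, -6.41 to 8.92 for Gzmk, -4.78 to 0.163 for Tcf7 and -1.33 to 5.94 for Klrg1. Omission of cells of expanded clones was not run, since the annotation used here names no clones. Cren 4 held 20 cells of cluster 6 and 62278 UMIs, which limits genes at low levels.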
